A study of Mus musculus with 4 samples.

Results

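The nuclei described here carried RNA of late neutrophil granule genes. They were selected on 6 genes, S100a8, S100a9, Ltf, Ngp, Camp and Lcn2, as nuclei with a summed count of at least 5 unique molecular identifiers (UMIs, each counting 1 captured RNA molecule) of these genes. Of 13619 kept nuclei, 485 met this rule, 163 of 5905 in library 1 (2.76%, 95% interval 2.36 to 3.21) and 322 of 7714 in library 2 (4.17%, 3.74 to 4.64). They are called late granule nuclei here, and all other kept nuclei of the same library served as the comparison.

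The nuclei came from bone marrow cells sorted as Lin-cKit+, a gate that holds hematopoietic stem and progenitor cells (HSPCs), of 8-week-old male C57BL/6 mice. RNA and open chromatin (ATAC, counts of transposase insertions in peaks) were read in the same nucleus. The labels gave an untreated group (Ctrl) and a group at day 14 of ligature-induced periodontitis (Lig, a thread tied around molars), each with 1 RNA and 1 ATAC sample that pooled several mice. Both groups were deposited in a single matrix whose barcodes end in 1 or 2, and no label tied an ending to a group. The endings are therefore called library 1 and library 2, no value was attributed to ligature, and there were no replicates, so no test was run. All intervals are 95% intervals for counting error within a library and say nothing about differences between mice. The late granule nuclei held 197222 UMIs and 2168480 ATAC counts in library 1 and 480160 UMIs and 4238560 ATAC counts in library 2.

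Neutrophils fill their granules in waves as they mature. Promyelocytes make the primary granule proteases, later precursors make the specific and gelatinase granule proteins, and the last stages gain secretory vesicles and chemokine receptors. The transcription factor C/EBPε drives the genes of the specific granules, and Kit expression is lost early on this path. S100a8 and S100a9 form calprotectin, Ltf encodes the iron-binding lactoferrin, Ngp a cystatin-like granule protein, Camp the cathelicidin precursor, and Lcn2 the siderophore-binding neutrophil gelatinase-associated lipocalin.

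In GRCm38 (mm10) coordinates with the GENCODE annotation, S100a8 lies at chr3:90668978-90670035 on the plus strand and S100a9 at chr3:90692632-90695721 on the minus strand. Ltf lies at chr9:111019271-111042767 and Ngp at chr9:110419747-110423012, both on the plus strand, and Camp at chr9:109847379-109849617 on the minus strand. Lcn2 lies at chr2:32384633-32388252 on the minus strand. The ATAC peaks described below include those at the starts of these genes and at intergenic sites a few kilobases before Ngp and Camp. The sequences of 4 of these starts (the 120 bases before the annotated start, on the strand of the gene) and of the centres of the distal Ngp and Camp peaks (200 bases, plus strand) are given because the peak values below refer to them. Capitals mark matches to the C/EBP pattern TTGCNNAA on either strand. They were read from GRCm38.p6 at chr3:90695722-90695841 (S100a9), chr9:110419627-110419746 (Ngp), chr9:109849618-109849737 (Camp), chr9:111019151-111019270 (Ltf), chr9:110415352-110415551 (distal Ngp) and chr9:109854518-109854717 (distal Camp).
S100a9 start: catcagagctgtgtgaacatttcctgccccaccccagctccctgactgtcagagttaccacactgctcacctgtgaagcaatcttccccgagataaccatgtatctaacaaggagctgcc
Ngp start: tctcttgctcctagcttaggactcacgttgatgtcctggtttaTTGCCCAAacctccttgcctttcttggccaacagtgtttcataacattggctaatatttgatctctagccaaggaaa
Camp start: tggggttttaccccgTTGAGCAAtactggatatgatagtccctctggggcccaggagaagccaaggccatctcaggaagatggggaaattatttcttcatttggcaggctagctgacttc
Ltf start: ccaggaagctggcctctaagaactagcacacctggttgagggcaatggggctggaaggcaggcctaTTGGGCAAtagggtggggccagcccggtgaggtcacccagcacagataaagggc
Ngp distal: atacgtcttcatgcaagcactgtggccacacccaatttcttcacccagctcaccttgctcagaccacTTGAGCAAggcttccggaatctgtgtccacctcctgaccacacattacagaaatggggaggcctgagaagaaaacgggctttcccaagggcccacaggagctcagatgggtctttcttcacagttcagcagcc
Camp distal: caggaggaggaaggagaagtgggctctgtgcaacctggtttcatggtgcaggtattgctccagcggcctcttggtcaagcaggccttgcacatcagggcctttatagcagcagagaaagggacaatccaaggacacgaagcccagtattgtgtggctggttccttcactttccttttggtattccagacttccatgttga
A C/EBP match lay before the starts of Ngp, Camp and Ltf and in the distal Ngp peak. No match lay in these windows at S100a8, S100a9 or Lcn2 or in the centre of the distal Camp peak, which says only that these letters were not there. Over the 21938 windows of 120 bases before protein-coding genes, 3.80% held the pattern. None of the printed windows overlapped an annotated exon.

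The rule fixed the RNA of the 6 genes, so their levels are a description. The summed UMIs had a median of 19 in library 1 (quartiles 11.5 and 26, maximum 61) and of 18 in library 2 (quartiles 10 and 27, maximum 77). Just inside the threshold, 7 nuclei of library 1 and 24 of library 2 held exactly 5 UMIs. Just outside, 9 and 43 nuclei held 4. Most of the other nuclei held none, 75.6% in library 1 and 57.5% in library 2, so the 2 libraries differed in how often 1 to 4 such UMIs appeared outside the selected nuclei. The 6 genes made up 1.69% and 1.36% of the UMIs of the late granule nuclei and 0.0168% and 0.0353% of those of the others.

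Nuclei rarely passed on 1 gene alone. All 6 genes were detected in 40 late granule nuclei of library 1 (24.5%) and 51 of library 2 (15.8%), 5 of the 6 in 52 and 89, and a single gene in 2 and 1. S100a9 had a UMI in 98.2% and 99.1% of them and S100a8 in 93.9% and 98.4%. Ngp was detected in 82.2% and 70.2%, Camp in 69.3% and 54.7%, Ltf in 66.3% and 49.1%, and Lcn2 in 33.7% and 31.7%. The calprotectin genes were thus found in nearly every selected nucleus of both libraries and the specific granule genes in fewer, each in a smaller share in library 2.

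Levels are given as CPM, the UMIs of a gene scaled to a total of 1000000 UMIs in the set of nuclei, and they were compared within a gene. S100a9 stood at 5674 CPM against 60.1 in other nuclei of library 1 and at 5494 against 141 in library 2. Ltf stood at 1369 against 7.43 CPM and at 735 against 17.5 CPM. Ngp stood at 3483 against 24.7 CPM and at 1812 against 47.4 CPM. Calprotectin RNA was nearly equal between the late granule nuclei of the libraries, whereas Ltf and Ngp were lower in those of library 2. Camp stood at 1795 against 20.9 CPM and at 1158 against 34.6 CPM, S100a8 at 4178 against 50.4 and at 4126 against 103, and Lcn2 at 431 against 4.06 and at 298 against 9.37. The other nuclei of library 2 had more of each of the 6 RNAs than those of library 1.

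Because free RNA can add UMIs to nuclei that do not express a gene, detection was compared after thinning each nucleus to 1000 UMIs, which left 76 and 244 late granule nuclei and dropped 87 and 78 shallower ones. S100a9 was then detected in 98.7% of late granule nuclei, 5.55% of other nuclei and 4.29% of nuclei with pro-B markers (2.64 to 6.55, 466 nuclei) in library 1. In library 2 the same shares were 94.3%, 13.3% and 4.76% (0.12 to 23.8, 21 nuclei). Pro-B cells should lack S100a9, so their share gives the level that reads as background, and for S100a9 the share of other nuclei lay inside the pro-B interval in library 1. In library 2 the pro-B share rested on 21 nuclei, too few to set a background. S100a8 was detected in 86.8% of late granule nuclei, 4.82% (4.23 to 5.47) of other nuclei and 2.58% (1.34 to 4.46) of pro-B nuclei in library 1, and in 91.0%, 9.52% and 4.76% (0.12 to 23.8) in library 2. The S100a8 share of other nuclei in library 1 thus lay above the pro-B interval.

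The late granule nuclei were shallow. Their median was 974 UMIs and 305 genes against 1658 and 643 in the other nuclei of library 1, and 1280.5 UMIs and 270 genes against 1527 and 415 in library 2. Transcripts of the 18S ribosomal locus (Gm42418, Gm26917 and AY036118) took 53.1% against 42.8% and 59.4% against 52.9% of UMIs. Their median ATAC depth was 11166 against 19882 and 9648 against 16517 counts, of which 60.7% against 52.0% and 56.3% against 50.7% lay in promoter peaks. The kept-nucleus filters removed 43 of 206 and 172 of 494 barcodes that met the UMI rule, 25 and 152 of them for having under 200 genes. The libraries shared 146 barcode sequences, 72 of them among kept nuclei and 0 among the late granule nuclei. Doublets were not called.

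ATAC at the 6 genes played no part in the selection, which used only limits on total ATAC counts. Its summed level there was higher in the same nuclei. Peaks from 10 kb before to 10 kb after the 6 genes held 807 ATAC CPM (754 to 862) in the late granule nuclei of library 1 and 190 in the others, where ATAC CPM are counts scaled to a total of 1000000 ATAC counts, a ratio of 4.25 (3.96 to 4.55). In library 2 they held 588 (556 to 622) against 211, a ratio of 2.79 (2.63 to 2.96). At least 1 count at the 6 loci was present in 89.0% and 89.8% of late granule nuclei and in 71.0% of the other nuclei of either library.

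ATAC differed mainly from the threshold upward. In nuclei with 0, 1 and 2 summed UMIs the 6 loci held 191, 189 and 171 ATAC CPM in library 1 and 210, 211 and 211 in library 2, and with 3 or 4 UMIs they held 218 and 229. From 5 to 9 UMIs the level was 542 and 407, from 10 to 19 it was 735 and 613, and from 20 to 49 it was 900 and 674. Nuclei with 50 or more UMIs stood at 1037 (7 nuclei) and at 495 (288 to 792, 8 nuclei), the last below the bin before it and with the widest interval. In library 1 the intervals were 187 to 195 at 0 UMIs, 181 to 197 at 1 and 153 to 191 at 2, and in library 2 they were 205 to 215, 205 to 218 and 199 to 223, so these 3 bins overlapped in each library.

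**Figure D1:**
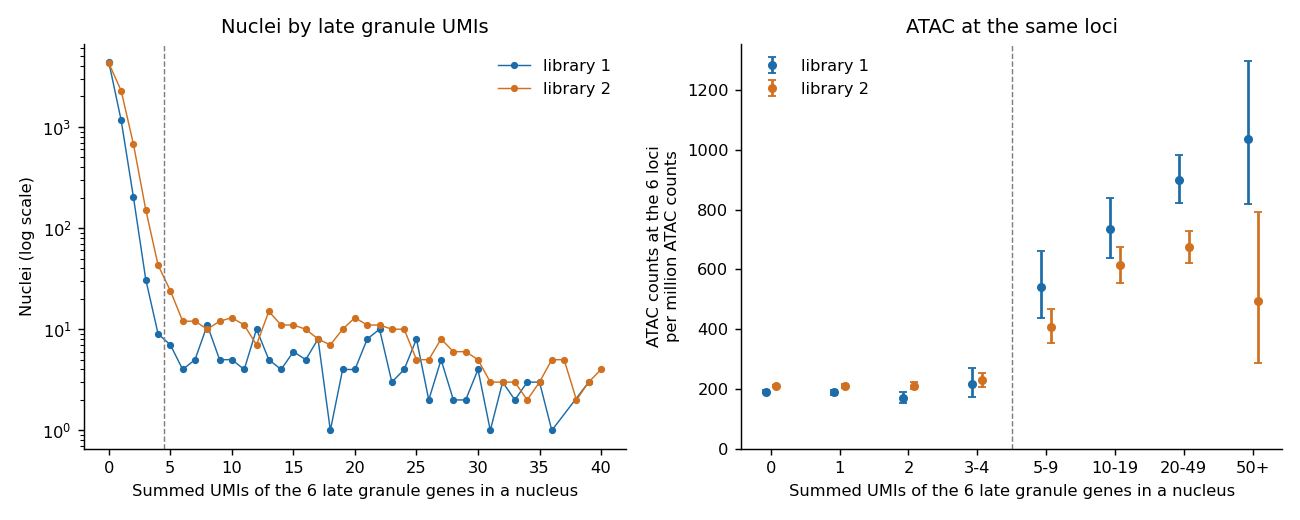
Left, number of nuclei (log scale) by the summed UMIs of the 6 late granule genes in a nucleus, up to 40 UMIs, for library 1 (blue) and library 2 (orange). Right, ATAC counts at the 6 loci as ATAC CPM in bins of the same UMIs, with 95% counting intervals, where the dashed line is the threshold of 5. ATAC lay between 171 and 229 ATAC CPM below the threshold and between 407 and 1037 above it.

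The loci did not contribute equally. ATAC ratios of late granule nuclei over others were 14.9 (12.5 to 17.6) and 6.16 (5.29 to 7.15) at S100a9, and 9.28 and 5.13 at S100a8. At the secondary granule loci they were 9.22 and 5.79 for Ngp, 10.1 and 3.93 for Camp, and 2.06 (1.65 to 2.55) and 1.46 (1.22 to 1.74) for Ltf. Lcn2 stood at 1.72 (1.47 to 1.99) and 1.58 (1.41 to 1.76). The loci with low ratios were those with high ATAC in other nuclei, where Lcn2 held 97.5 and 98.7 and Ltf 39.6 and 42.6 ATAC CPM against 7.84 to 22.9 at the other 4 genes. Each of the 6 ratios was lower in library 2.

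Loci of the primary granule genes Mpo, Elane and Prtn3 served as a check in the same lineage. At Mpo, which encodes myeloperoxidase, the ratio was 0.926 (0.700 to 1.20) in library 1 and 0.784 (0.644 to 0.947) in library 2. At the neighbouring Elane and Prtn3, encoding neutrophil elastase and proteinase 3, it was 0.876 (0.687 to 1.10) and 0.895 (0.766 to 1.04). As scaled here, late granule nuclei thus had no more ATAC than others at Mpo and at Elane and Prtn3, with upper bounds of 1.20 and below. This did not hold for all primary granule genes, since promoter peaks of the list given below summed to 1.24 (1.13 to 1.36) and 1.13 (1.05 to 1.22). The late granule nuclei also had more of their ATAC in promoter peaks, and the median ratio of all counted peaks was 0.551 and 0.742.

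Other nuclei with at least 10 summed UMIs of the 5 genes Mpo, Elane, Prtn3, Ctsg and Ms4a3 (261 and 587 nuclei) were used as the most similar set. They are called protease nuclei here, although Mpo and Ms4a3 do not encode proteases, and the comparison was chosen after the data were seen. ATAC of the protease nuclei at the 6 late granule loci was 1.23 (1.14 to 1.32) and 1.20 (1.14 to 1.26) times that of all other nuclei. It was raised at S100a9 (2.24 and 1.93), Camp (2.53 and 2.08) and S100a8 (1.67 and 1.54), while Ltf stood at 1.07 and 0.879 and Lcn2 at 0.990 and 0.978. The late granule nuclei exceeded these values at each of the 6 loci in both libraries. At Mpo the order was opposite, with 1.93 and 1.61 in the protease nuclei.

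Peaks were also compared one by one. Across all 103952 peaks with at least 200 counts in each library, 3565 (3.43%) were at least 2-fold higher in the late granule nuclei of both libraries and 23607 (22.7%) at least 2-fold lower, with a median ratio of 0.551 and 0.742. With a threshold of 3 summed UMIs for the nuclei, the counts were 1744 and 6598. Of the 3565, 3309 reached 200 counts in the other nuclei of each library alone, and 256 passed the minimum only with the counts of the late granule nuclei. The 7 peaks within 1 kb of a start of the 6 genes were among the higher ones, 5 of them with the minimum reached in other nuclei alone, while those at the starts of S100a9 and Ngp passed only with the late granule nuclei in library 1. Summed over these 7 peaks the ratio was 13.1 (11.7 to 14.7) and 6.08 (5.49 to 6.72).

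The highest ratio of all counted peaks was at the S100a9 start, chr3:90695392-90696257, whose upstream sequence is printed above. It held 94.5 ATAC CPM in late granule nuclei and 1.14 in others of library 1, a ratio of 83.1 (60.4 to 115). In library 2 it held 51.2 against 2.14, a ratio of 24.0 (18.4 to 31.1). Outside the selected nuclei it was among the weaker counted peaks of both libraries.

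The second was intergenic, at -4296 bp from the start of Ngp, chr9:110415005-110415898, and its centre held 1 C/EBP match. It stood at 64.6 against 1.03 ATAC CPM, a ratio of 63.0 (43.9 to 90.5), and at 38.7 against 1.74, a ratio of 22.2 (16.5 to 29.8). The peak at the Ngp start, chr9:110419283-110420196, stood at 59.5 against 1.68 (35.4, 25.4 to 49) and at 38.2 against 2.47 (15.4, 11.7 to 20.3). The ratio at the distal site was thus at least as high as that at the promoter.

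Camp showed the same layout. An intergenic peak at -5000 bp from its start, chr9:109854174-109855061, held 37.8 against 0.939 ATAC CPM (40.3, 26.2 to 61.5) and 18.2 against 1.44 (12.6, 8.42 to 18.6), although its total in library 1 was below 200 counts, so it was not counted among the higher peaks. The peak at the Camp start, chr9:109849188-109850100, had ratios of 6.36 and 3.01. There other nuclei already held 6.01 and 9.89 ATAC CPM.

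At S100a8 the start had ratios of 11.6 and 5.59, and an intergenic peak at -9283 bp from it, chr3:90659259-90660131, had 24.6 and 9.11. Ltf had 6.57 and 3.83 at its start, chr9:111018704-111019612. Lcn2 had 7.35 and 3.87 at a peak just after its start, and 4.93 and 4.44 at a peak at -1118 bp from it. Thus the Ltf and Lcn2 promoters did differ although their wider loci differed little.

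**Figure D2:**
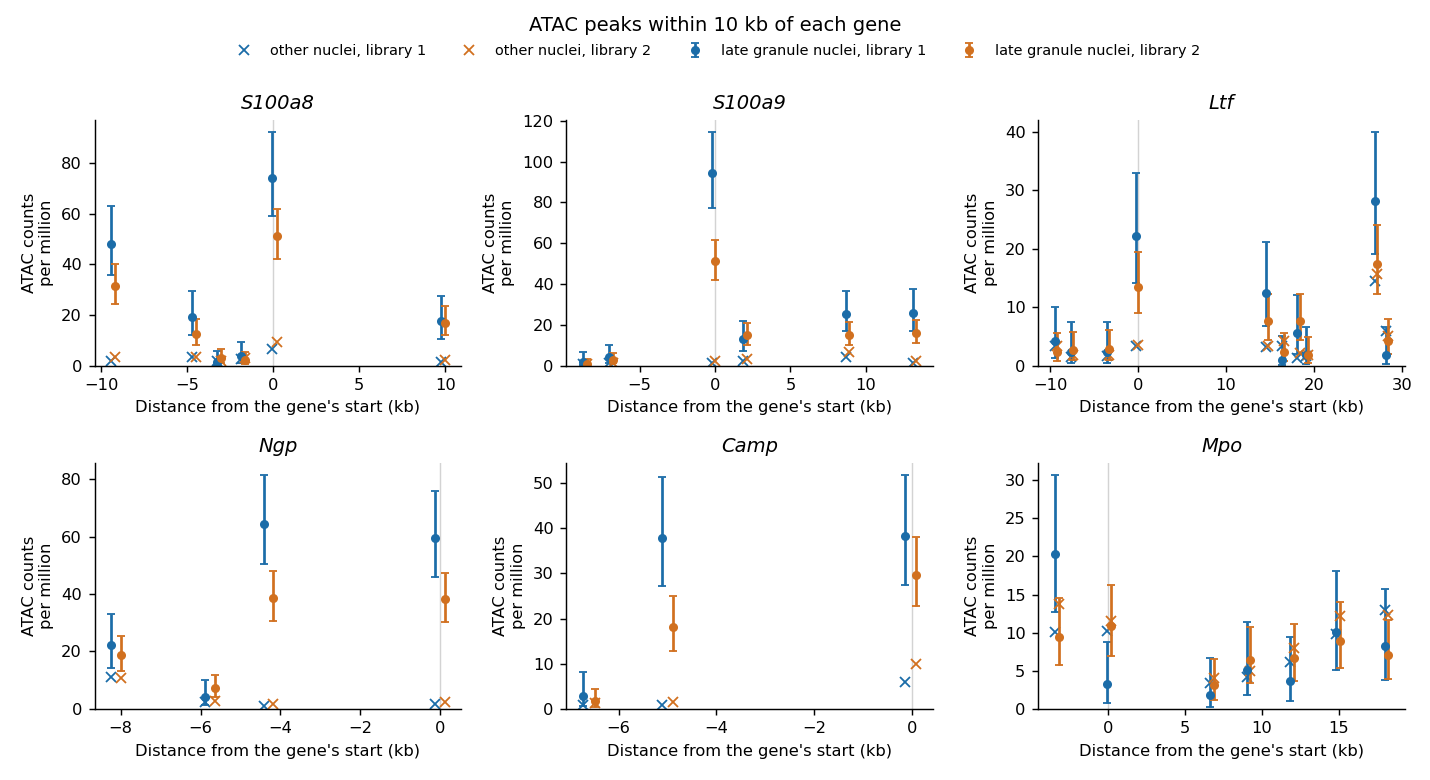
ATAC CPM for each peak within 10 kb of 5 late granule genes and of Mpo, by distance of the peak from the start of the gene in kb. Filled points are late granule nuclei with 95% counting intervals and crosses are other nuclei, in blue for library 1 and orange for library 2. At the starts of S100a9 and Ngp and at the distal peaks of Ngp and Camp other nuclei sat between 0.939 and 2.47 ATAC CPM, and no peak at Mpo was at least 2-fold higher in the late granule nuclei of both libraries.

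Among the 10 counted peaks with the highest smaller ratio of the libraries, 3 were those at S100a9 and Ngp. All 10 passed the count minimum in library 1 only with the counts of the late granule nuclei, so they had to be higher there and their rank is a description. One lay in the promoter of Cd177, a neutrophil surface glycoprotein, at chr7:24760955-24761846 with ratios of 31.5 and 14.3. Another lay in intron sequence of Syne1, which encodes the nuclear envelope protein nesprin-1, 2700 bp inside the gene at chr10:5548363-5549201 with ratios of 18.6 and 13.8 and a C/EBP match. The remaining ones were in an intron of Dtd1 (chr2:144697763-144698608, 31.1 and 18.9), at 2 annotated transcript starts within Klhdc4 (chr8:121796150-121797059, 34.2 and 13.7, and chr8:121805877-121806762, 31.4 and 13), and intergenic (chr11:70417966-70418823, 25.4 and 15.6, and chr1:181310417-181311290, 16.8 and 12.9). The RNA of Syne1 and Cd177 was also higher in the same nuclei, as given below.

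At the low end, 1096 counted peaks had 0 counts in the late granule nuclei of both libraries, so the 5 lowest were tied. One of them lay in an exon of St18 (chr1:6858747-6859610) and another in an intron of Prdm14 (chr1:13117585-13118431). In others they stood at 1.95 and 1.76, and at 2.47 and 2.60 ATAC CPM. For 0 counts the upper bounds were 3.40 and 1.74 ATAC CPM. The upper bound of the ratio was above 1 for all 5 in library 1 and below 1 for 4 of the 5 in library 2, so in library 1 these peaks could not be told from others at this depth.

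Higher and lower peaks both lay less often at starts than peaks in general did. Of the 3565, 16.8% were promoter peaks, 10.4% exonic, 40.7% intronic and 32.1% intergenic, against 26.8%, 9.46%, 33.4% and 30.3% of all counted peaks and 19.7%, 8.99%, 37.1% and 34.2% of the lower ones. In their central 200 bases the C/EBP pattern was found in 23.3% (21.9 to 24.7), against 9.89% of all peaks and 8.60% of the lower ones. Away from promoters it was in 23.6% against 11.1%, in promoter peaks in 21.7% against 6.62%, in the 3309 that reached the count minimum in other nuclei alone in 23.5%, and in the 293 peaks at least 5-fold higher in both libraries in 25.6% (20.7 to 31.0). Every one of these shares counts peaks and not factor binding.

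Of the 11 patterns searched, PU.1 (GGAAGT) came next, in 40.5% (38.9 to 42.2) of higher peaks against 29.7% of all, and the nuclear receptor site (AGGTCA) was in 15.2% (14.0 to 16.4) against 11.4%. RUNX (TGTGGT) was in 25.1% against 22.1%, but also in 25.6% of the lower peaks. Away from promoters RUNX was in 25.3% of higher and 25.1% of all peaks, and in promoter peaks in 24.4% against 14.0%. AP-1 (TGANTCA) was in 9.28% against 8.0%, the GATA factor site (AGATAA) in 7.55% against 7.60% and GFI1 (AATCAC) in 7.15% against 6.71%. The E-box (CAGCTG) at 12.5% against 14.9%, the EBF pattern (CCCNNGGG) at 5.58% against 8.23% and the IRF pattern at 2.58% against 3.39% were below the share of all peaks, and forkhead (TGTTTAC) stood at 3.06% against 2.26%. Both strands were searched, and no pattern contains another in full, but matches of different patterns may overlap in a sequence. Median GC content was 49% in higher peaks and 51% in all.

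**Figure D3:**
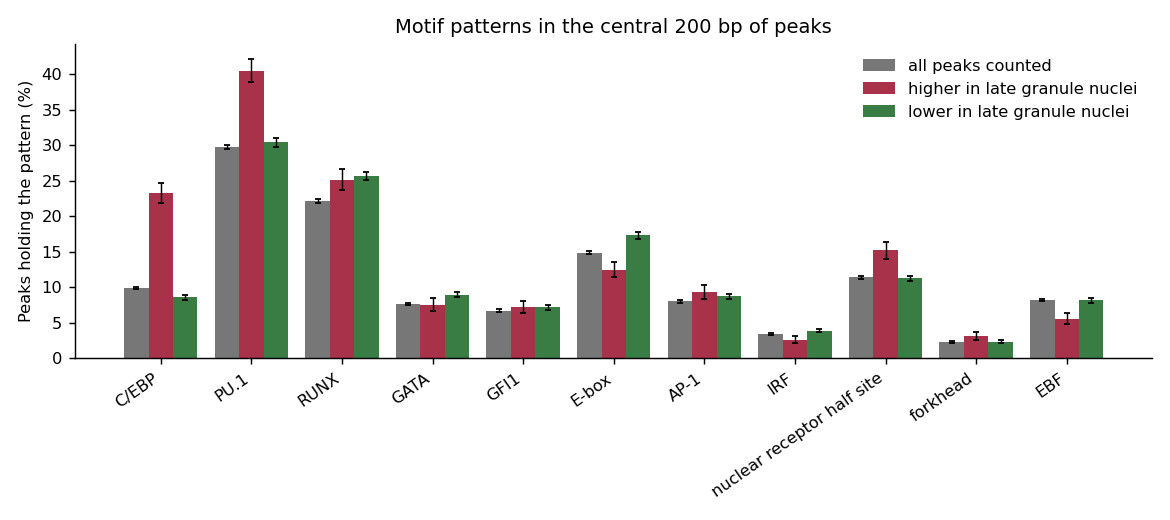
Share of peaks (%) whose central 200 bases hold each of 11 patterns, in all counted peaks (grey), peaks at least 2-fold higher (red) and peaks at least 2-fold lower (green) in late granule nuclei of both libraries, with 95% counting intervals. The largest gap between red and grey was that of C/EBP, 23.3% against 9.89%, followed by PU.1, 40.5% against 29.7%.

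RNA of genes outside the rule came from the nuclei that the rule chose, so it is described and not tested. Among the 6397 genes that reached 100 UMIs in both libraries, 142 (2.22%) were at least 2-fold higher and 920 (14.4%) at least 2-fold lower in the late granule nuclei of both libraries. The median ratio was 0.617 and 0.734, so a typical counted gene was lower, and leaving out the ribosomal locus brought its log2 from -0.70 and -0.45 to -0.41 and -0.23. The balance of the counts rested on the scaling and the threshold. Without the ribosomal locus 557 genes were lower, relative to the median gene 341 were higher and 285 lower, and with a threshold of 3 summed UMIs for the nuclei 88 were higher and 196 lower. Of the 142, 126 reached 100 UMIs in the other nuclei of each library alone. Interval lower bounds exceeded 2 in both libraries for 58 of the 142, while upper bounds fell under 0.5 for 16 of the 920.

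Late granule and secretory genes outside the rule were higher as far as they could be counted. Of 26 listed, 8 passed the count minimum and all 8 were among the higher genes, against 2.22% of all counted genes. Only 5 of the 8 passed on other nuclei alone, and the rest had to be higher. The count of 8 and its median ratio of 18.1 and 8.98 are therefore a description. The summed ratio over the 26 was 24.0 (22.2 to 26.1) and 12.5 (11.7 to 13.3). At their promoters 13 of 23 counted ATAC peaks were higher, against 3.43% of all counted peaks, with a summed ratio of 3.97 (3.67 to 4.30) and 2.83 (2.65 to 3.01). Some of the 13 passed the count minimum only with the counts of the late granule nuclei, so they had to be higher. Among these were the Cd177 and Itgb2l peaks, with 136 and 176 counts in other nuclei of library 1. The count of 13 is therefore a description.

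Retnlg, a resistin-like secreted protein of neutrophils, stood at 502 against 3.96 CPM (ratio 127, 86.9 to 188) and at 346 against 8.21 CPM (42.1, 32.6 to 54.6). Its promoter ATAC ratios were 12.8 and 15.9. Chil3, the chitinase-like protein Ym1, stood at 593 against 7.63 CPM (77.8) and at 450 against 14.1 CPM (31.9). Both belong to families with similar copies, so reads of a paralog cannot be told apart from the counts alone. Other nuclei of library 1 held 40 UMIs of Retnlg and 77 of Chil3. There both genes passed the count minimum only with the late granule nuclei.

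Lyz2, lysozyme, had ratios of 24.9 and 14.3 and Abca13, a large lipid transporter, 48.8 and 11. Anxa1, the actin- and membrane-binding annexin A1 of gelatinase granules, had 10.3 and 5.63. Hp, haptoglobin, had 5.56 and 4.12, and Serpinb1a, an inhibitor of neutrophil serine proteases, 3.97 and 3.43. All of these lay above 2 in both libraries.

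Below the count minimum lay 18 of the 26, and 15 of these had ratios above 2 in both libraries on fewer UMIs. Mmp8, the neutrophil collagenase, had 57 and 67 UMIs in late granule nuclei against 34 and 73 in all others (85.8, 55.2 to 135, and 23.0, 16.3 to 32.6). Mmp9, gelatinase B, had 64.0 and 29.8, and Padi4, the histone-citrullinating enzyme, 27.6 and 12.6. Cd177 had 39 and 55 UMIs against 14 and 26 in others (143, 75.8 to 284, and 53.1, 32.8 to 88.3). The other 3, Ceacam10, Olfm4 and Orm1, had at most 3 UMIs in these nuclei.

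Primary granule genes had lower ratios than these. Of the 13 counted, 1 was among the higher genes and 0 among the lower, against 2.22% and 14.4% of all counted genes, which for so short a list says little about its members, with a median ratio of 0.747 and 0.981, and the list summed to 0.762 (0.688 to 0.841) and 1.0 (0.954 to 1.05). The libraries differed here, but less with a threshold of 10 summed UMIs for the nuclei, where the sum was 0.667 and 0.755. In library 2 Mpo stood at 2212 CPM in the 70 nuclei with 5 to 9 summed UMIs and at 860 CPM in the 244 with 10 to 49. Over all late granule nuclei the values were as follows. Mpo stood at 395 against 890 CPM in library 1 (0.445, 0.351 to 0.555) and at 1141 against 1255 CPM in library 2 (0.910, 0.834 to 0.991), and Ctsg, cathepsin G, at 0.359 and 1.14. Elane stood at 0.798 and 1.19 and Prtn3 at 0.992 and 1.17. As scaled here, Mpo and Ctsg RNA were thus below the level of other nuclei in library 1. Relative to the median gene the sum of the list turned to 1.20 (1.09 to 1.33) in library 1 and was 1.38 (1.31 to 1.44) in library 2. The list also held Calr, Hsp90b1, Pdia6, Srgn, Ctsc and Nkg7. Of its 26819 UMIs in other nuclei of library 1, Mpo, Elane, Prtn3, Ctsg and Ms4a3 gave 15335. The sum of these 5 genes alone was not scaled to the median gene, so the turn describes the list as a whole.

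The 1 higher gene of that list was Hdc, histidine decarboxylase, which makes histamine, at 14.0 and 8.67. Fcnb, the ficolin B gene listed with it, had 27 and 42 UMIs against 19 and 39 in all others (72.8, 39.0 to 138, and 27.0, 17.1 to 42.9), below the count minimum. The promoters of both were among the 4 of 16 higher promoter peaks of the list, against 3.43% of all counted peaks, with 2.73 and 2.21 for Hdc and 3.19 and 3.51 for Fcnb. The other 2 were those of Ms4a3 (3.79 and 2.31) and Prss57 (4.24 and 2.07), whose RNA ratios had intervals that included 1 in both libraries.

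All 5 genes listed here for the phagocyte NADPH oxidase, which makes superoxide, were at least 2-fold higher, against 2.22% of all counted genes. Their summed ratio was 5.63 (4.83 to 6.54) and 3.68 (3.24 to 4.18). The membrane subunits stood at 11.2 and 6.93 for Cybb and 3.10 and 3.06 for Cyba. The cytosolic subunits stood at 6.18 and 2.81 for Ncf1 and 5.90 and 3.05 for Ncf4, and the GTPase Rac2 at 2.49 and 2.75. Against the protease nuclei the summed ratio was 4.47 (3.57 to 5.60) and 2.62 (2.21 to 3.10). Of 5 counted promoter peaks of these genes, 1 was higher and 0 were lower, against 3.43% and 22.7% of all counted peaks, too few to set apart from the background. Summed over the 5 peaks the ratio was 1.72 (1.52 to 1.94) and 1.63 (1.48 to 1.79), beside the larger share of ATAC in all promoter peaks of these nuclei.

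Of 14 counted receptor and adhesion genes, 1 was higher and 3 lower, against 2.22% and 14.4% of all counted genes, so the count of lower genes was near the background. The higher gene was Itgam, the CD11b integrin chain, at 19.7 (13.6 to 28.0) and 12 (9.16 to 15.7), with promoter ATAC ratios of 4.54 and 2.28. The lower genes were Kit, the receptor used in the gate, at 0.326 (0.149 to 0.621) and 0.444 (0.253 to 0.726), the cytokine receptor Flt3 at 0.420 and 0.453, and the integrin chain Itga4 at 0.245 and 0.391. The gate read the cKit protein, which was not measured in the nuclei.

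Receptors of later neutrophils had few UMIs but high ratios. Il1r2, the interleukin-1 decoy receptor, had 46 UMIs in either library against 58 and 43 in others (40.6, 27.0 to 60.8, and 26.9, 17.3 to 41.7). Cxcr2, the chemokine receptor for release from marrow, had 10 and 19 UMIs (30.1, 12.3 to 69.6, and 11.9, 6.53 to 21.1) with promoter ATAC ratios of 5.4 and 4.44. Ly6g, the surface antigen that marks mouse neutrophils, had 12 and 15 UMIs against 2 and 11 (307, 68.4 to 2826, and 34.2, 14.7 to 82.4). Csf3r, the receptor of granulocyte colony-stimulating factor, stood at 1.98 (0.940 to 3.71) and 3.12 (2.15 to 4.40).

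Of 12 counted transcription factor genes, 2 were higher and 2 lower, against 2.22% and 14.4% of all counted genes, so here too the lower count was near the background. Cebpb stood at 2.01 (0.725 to 4.47) and 2.48 (1.52 to 3.85), on 6 and 22 UMIs, and Trib1, a pseudokinase that controls C/EBPα, at 3.76 (1.77 to 7.14) and 2.33 (1.08 to 4.44). Myb, a factor of progenitors, stood at 0.293 and 0.392, and Irf8, a factor of the monocyte and dendritic lineages, at 0.179 and 0.336. The Irf8 promoter had the lowest ATAC ratios of the list, 0.0288 (0.000729 to 0.161) and 0.195 (0.102 to 0.338).

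Cebpe, which encodes C/EBPε, had 8 and 10 UMIs (15.2, 5.96 to 34.3, and 5.02, 2.27 to 10.0), found in 7 and 9 late granule nuclei. The peaks at its start had ATAC ratios of 4.29 (3.07 to 5.86) and 2.03 (1.5 to 2.71). Spi1, which encodes PU.1, stood at 3.05 and 1.91. Runx1 RNA stood at 0.345 and 0.601 although its counted promoter peak stood at 2.40 and 1.82.

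**Figure D4:**
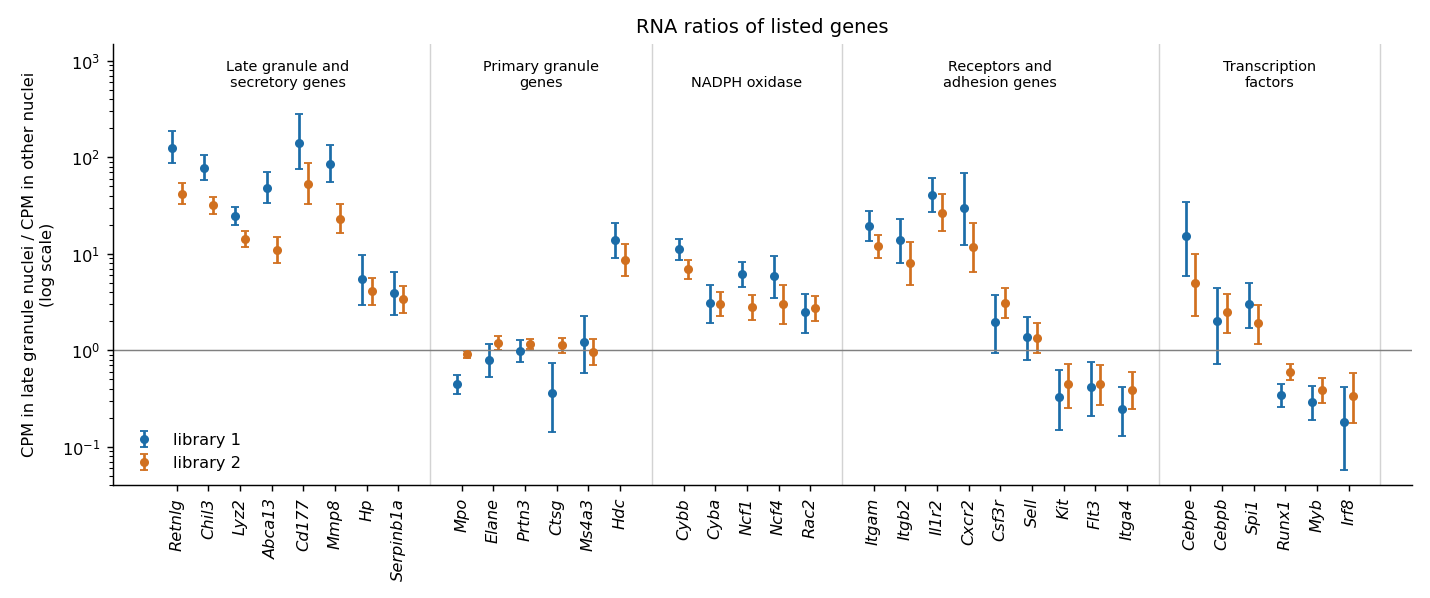
Ratio of CPM in late granule nuclei over CPM in other nuclei (log scale) for genes of 5 lists, with 95% counting intervals, for library 1 (blue) and library 2 (orange). Late granule and oxidase genes and the integrins Itgam and Itgb2 lay above 1, and the primary granule genes Mpo, Elane and Prtn3 between 0.445 and 1.19. Kit, Flt3, Itga4, Myb and Irf8 lay below 0.5 in both libraries.

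Outside the lists, Syne1 had the highest smaller ratio among counted genes, 40.3 (34.3 to 47.4) and 25.1 (21.2 to 29.7), on 271 and 283 UMIs. It was detected in 70.6% and 47.8% of late granule nuclei and in 5.17% and 3.54% of others. Plbd1, a granule phospholipase-like protein, followed at 23.7 and 20.5, and Plaur, the urokinase receptor, at 29.3 and 9.28. The 15 genes of this rank continued with Adpgk, Mxd1, Pygl, Dgkh, Ncam1, Actn1, Xdh, Fam129a, Dgat1, Nfam1, S100a11 and C3, whose lower library ratio lay between 4.70 (C3) and 8.95 (Adpgk). Of the 15, Plbd1, Plaur, Dgkh, Actn1 and C3 passed the count minimum only with the UMIs of the late granule nuclei, so they had to be higher there and their rank is a description. Pygl, the liver-type glycogen phosphorylase, stood at 13.2 and 7.02 and Mxd1, a MYC antagonist, at 8.92 and 8.57. The genes at the low end (Camsap2, Zbtb41, Cdc42bpa, Ndor1, Egfl7, P2rx4, Tmem86b, 4931406P16Rik, Ubfd1 and Fbxl19) had 0 UMIs in these nuclei, as did 21 counted genes in all, which allows up to 18.7 and 7.68 CPM.

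Higher RNA and higher ATAC were often found at the same genes. Of 137 higher genes with a counted peak nearest to them, 108 (78.8%) had at least 1 higher peak, against 94 of 878 lower genes (10.7%) and 1195 of all 6099 (19.6%). Without the rule genes, and over genes and peaks that reached the count minimums in other nuclei alone, the shares were 86 of 117 (73.5%), 88 of 878 (10.0%) and 1105 of 6000 (18.4%). Both measures came from the same selected nuclei. For Alox5, the 5-lipoxygenase of leukotriene synthesis, named after its values were seen, 8 of 10 nearest peaks were higher and RNA stood at 35 and 16.1 on 26 and 27 UMIs.

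Cell cycle genes of late granule nuclei did not exceed those of other nuclei as scaled here. The 48 listed S phase genes summed to 0.463 (0.411 to 0.518) and 0.717 (0.665 to 0.771) of other nuclei. Of the 45 counted, 0 were higher and 3 lower, a smaller share than the 14.4% lower among all counted genes. The 53 listed G2/M genes summed to 0.861 (0.80 to 0.925) and 0.946 (0.893 to 1.0), and of the 47 counted 0 were higher or lower. Both sums stood beside a median gene ratio of 0.617 and 0.734, and the G2/M sum in library 1 turned to 1.05 without the ribosomal locus and to 1.36 relative to the median gene. Promoter ATAC of the same lists stood at 1.20 and 1.18 for S phase and at 1.38 and 1.27 for G2/M. These values stood beside a larger share of ATAC in all promoter peaks of the late granule nuclei. That share was 60.7% against 52.0% in library 1 and 56.3% against 50.7% in library 2.

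Interferon response genes, which the study follows in this lineage, had 7 counted members with 0 higher and 0 lower, too few to set apart from the 2.22% and 14.4% of all counted genes. Their sum over all listed genes was 1.19 (0.946 to 1.49) and 1.27 (1.05 to 1.53) of other nuclei, and 1.89 (1.42 to 2.5) and 1.65 (1.30 to 2.09) of the protease nuclei. Relative to the median gene the sum stood at 1.88 (1.49 to 2.35) and 1.75 (1.45 to 2.10) of other nuclei. Their promoter ATAC was 1.03 (0.940 to 1.12) and 1.02 (0.961 to 1.09), beside the larger share of ATAC in all promoter peaks given above. Of the Schlafen genes, a family of growth and interferon-regulated proteins, 2 were counted, with 1 higher and 1 in neither direction. These are too few to set apart from the 2.22% of all counted genes. Slfn2 was the higher one, at 3.51 and 3.07, while the median ratio of the 2 was 1.94 and 1.81. Slfn4, below the count minimum, had 43 UMIs in either library against 15 and 21 in others (147, 79.9 to 284, and 51.4, 29.8 to 91.2) with promoter ATAC at 7.56 and 6.90. Slfn8 and Slfn9 had at most 3 UMIs in the late granule nuclei. The nuclear receptors the study names (Rarb, Rarg, Nr2f6, Pparg and Rxra) had 2 and 4 UMIs in all, too few to compare RNA. Of their 4 counted promoter peaks, 0 were higher and 1 lower (Pparg, 0.287 and 0.371). Over all counted peaks these shares were 3.43% and 22.7%, so 4 peaks are too few to set apart. Their summed ratio was 1.12 (0.896 to 1.39) and 0.949 (0.802 to 1.12). Of the 6 neutrophil genes that the study picked on these samples, S100a8 and S100a9 are rule genes, and Camk1d, a calmodulin kinase, stood at 0.977 and 0.929. That list is not independent evidence of a direction.

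Pro-B, monocyte and stem-like markers were below the level of all other nuclei. Against the protease nuclei, pro-B markers were higher, at 1.78 (1.23 to 2.54) and 1.68 (1.13 to 2.49). Monocyte markers stood there at 0.379 (0.271 to 0.519) and 0.652 (0.532 to 0.794). Stem-like markers stood at 0.593 (0.301 to 1.08) and 0.70 (0.397 to 1.18). Why pro-B markers exceeded those of the protease nuclei was not tested. Of 8 pro-B markers 5 were counted, with 1 lower (Ebf1) and 4 in neither direction, and the sum of the 8 was 0.195 (0.145 to 0.258) and 0.427 (0.310 to 0.572), and of 12 counted promoter peaks 7 were lower and 0 higher, against 22.7% lower among all counted peaks. Monocyte markers summed to 0.363 and 0.541 with 3 lower genes of 7 counted, and stem-like markers to 0.224 and 0.311 with 3 lower of 4, Mecom among them, against 14.4% of all counted genes. Macrophage markers had 1 and 9 UMIs (ratios of 0.665, 0.0166 to 3.82, and 1.93, 0.862 to 3.79), eosinophil markers 1 and 1 (1.19, 0.0295 to 7.0, and 0.558, 0.0138 to 3.27), NK/T markers 2 and 1 and erythroid markers 5 and 5. These last 4 lists held too few UMIs to tell their level from that of other nuclei. The 7 megakaryocyte markers summed to 1.23 (0.938 to 1.58) and 0.676 (0.497 to 0.901), with 0 higher and 0 lower genes among 2 counted and with 4 and 3 of the 7 at 0. The 6 late granule markers were the rule itself and are no check of the label. Of the granulocyte-monocyte progenitor markers, Mpo, Elane, Prtn3 and Ctsg had RNA ratios of 0.359 to 1.19. Ms4a3, also such a marker, had RNA intervals that included 1 in both libraries. Its promoter ATAC ratios were 3.79 and 2.31, whereas those of Mpo, Elane, Prtn3 and Ctsg lay between 0.315 and 1.25. After thinning to 1000 UMIs, Mpo was detected in 19.7% (11.5 to 30.5) of late granule nuclei and 20% (16.4 to 23.9) of pro-B nuclei in library 1, a share at background, and in 49.6% (43.2 to 56.0) and 23.8% (8.22 to 47.2) in library 2.

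The late granule nuclei were not uniform. They were split, after the data were seen, by their UMIs of the 4 secondary granule genes Ltf, Ngp, Camp and Lcn2 into nuclei with 0 (19 in library 1 and 59 in library 2), 1 to 4 (33 and 114) and 5 or more (111 and 149). Nuclei of the first set passed the rule on calprotectin RNA alone. Library 1 thus had 111 of 163 in the granule-rich set and library 2 had 149 of 322.

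Some genes of later neutrophils, Retnlg, Il1r2 and Mmp8, were lower where granule RNA was high. Retnlg stood at 1111, 1327 and 228 CPM over the 3 sets of library 1 and at 587, 523 and 126 CPM in library 2, a ratio of the granule-rich set to the rest of 0.181 (0.115 to 0.279) and 0.231 (0.149 to 0.347). Il1r2 stood at 1296, 221 and 117 CPM and at 207, 101 and 48.0 CPM, with ratios of 0.212 (0.109 to 0.399) and 0.344 (0.157 to 0.692). Mmp8 had ratios of 0.326 and 0.571. Cxcr2 had 1 UMI in the granule-rich set of library 1 against 9 in the rest (0.0402, 0.000917 to 0.290) and 5 against 14 in library 2 (0.390, 0.110 to 1.15). Others did not share this. Cd177 had ratios of 1.05 (0.497 to 2.41) and 2.44 (1.35 to 4.62), Itgam 0.801 (0.414 to 1.63) and 2.04 (1.27 to 3.32), and Ly6g 1.09 (0.271 to 6.23) and 1.64 (0.521 to 5.60).

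The 5 genes that defined the protease nuclei, Mpo, Elane, Prtn3, Ctsg and Ms4a3, were likewise lower in the granule-rich set. They summed to 1172, 1658 and 725 CPM in library 1, where other nuclei held 1519. In library 2 they summed to 3284, 3375 and 1452 CPM, where others held 2383. The granule-rich set stood at 0.481 (0.356 to 0.652) and 0.434 (0.381 to 0.494) of the rest. In library 2, 27 late granule nuclei (8.39%) held 10 or more UMIs of these 5 genes, 8 of them with no secondary granule UMI, against 7.94% of other nuclei. In library 1 it was 1 late granule nucleus (0.614%) against 4.55% of other nuclei.

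Other genes were higher where granule RNA was high. Chil3 stood at 0, 82.9 and 787 CPM and at 109, 214 and 750 CPM (ratios of 13.7, 4.59 to 67.6, and 4.27, 3.05 to 6.09). Syne1 stood at 370, 940 and 1595 CPM and at 152, 466 and 850 CPM (2.09, 1.49 to 3.0, and 2.42, 1.87 to 3.15). Lyz2 had ratios of 2.49 and 4.13 and the NADPH oxidase genes 1.89 and 1.46. In both libraries these genes were thus highest in the granule-rich set. That set was made from the UMIs of Ltf, Ngp, Camp and Lcn2, so the shared order is a description and no test.

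G2/M genes went the same way, at 2098, 2736 and 4336 CPM in library 1 and 2251, 2078 and 3182 CPM in library 2. The granule-rich set stood at 1.71 (1.41 to 2.08) and 1.49 (1.33 to 1.66) of the rest, beside other nuclei at 4482 and 2791 CPM. S phase genes stood at 0.973 (0.751 to 1.27) and 1.13 (0.973 to 1.30), so the cell cycle lists differed within the late granule nuclei in G2/M and not detectably in S phase.

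ATAC at the Ltf, Ngp, Camp and Lcn2 loci stood at 185, 326 and 548 ATAC CPM in library 1 and at 246, 294 and 469 in library 2, with other nuclei at 161 and 172. The granule-rich set had 1.92 (1.51 to 2.46) and 1.69 times the ATAC of the rest. At S100a8 and S100a9 the ratio was 1.22 (0.947 to 1.58) and 1.68 (1.39 to 2.04). The open chromatin of the 4 loci, which the split did not use, therefore followed their RNA within the late granule nuclei of both libraries.

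**Figure D5:**
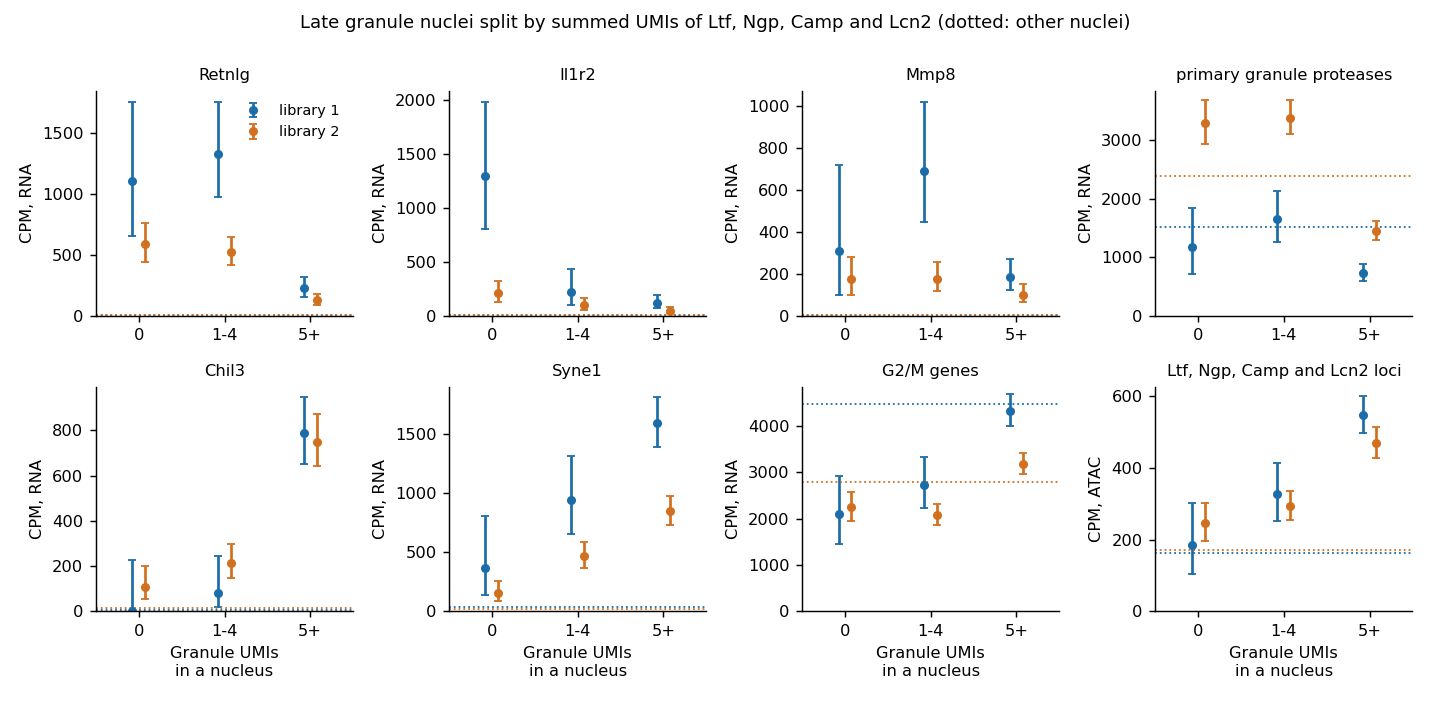
Late granule nuclei split by their summed UMIs of Ltf, Ngp, Camp and Lcn2 (0, 1 to 4, 5 or more), with CPM of RNA or of ATAC and 95% counting intervals, in blue for library 1 and orange for library 2, where dotted lines are other nuclei. Retnlg was lowest in the set with 5 or more, at 228 and 126 CPM, while Chil3, Syne1 and ATAC at the 4 loci were highest there.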

How the data were processed

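The files held 1 matrix of 32272 gene rows, 174339 peak rows and 18961 barcodes for 4 samples (RNA and ATAC of Ctrl and Lig). The authors deposited raw counts, UMIs for genes and ATAC counts for peaks, without normalization, and per the submitters' processing notes they used Cell Ranger ARC 2.0.0 on GRCm38 (mm10), with Seurat 4.0.3 and Signac 1.3.0 downstream. No label mapped barcode endings to samples, so endings 1 and 2 were kept as 2 libraries in no group. Of nonzero peak entries, 82.5% were even, so ATAC intervals were computed on halved counts.

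Nuclei were kept if they had 200 genes or more and if ATAC counts in peaks lay between 1000 and 50000. UMIs and ATAC counts were summed over late granule nuclei and over other nuclei of a library and divided by the totals. Depth was 197222 and 480160 UMIs in late granule nuclei and 10097305 and 12057168 UMIs in others. Ratios carry exact conditional binomial intervals, shares Clopper-Pearson and levels Poisson intervals. With 1 library per value there was no p-value. Genes with at least 100 UMIs and peaks with at least 200 ATAC counts over the kept nuclei of each library were counted as higher or lower when at least 2-fold apart in the same direction in both libraries.

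Gene positions came from GENCODE M21, which matched 99.8% of gene IDs, and sequences from GRCm38.p6. Promoter peaks overlapped 1 kb each side of an annotated transcript start. Named genes were the listed genes, the 15 highest and 10 lowest other genes, and the 10 highest and 5 lowest peaks by the less extreme library. Listed genes that are not reported here were left out of their lists and sums. The members and lists were chosen with earlier results of these data known. Alternatives changed the threshold, rule, filters, depth, scaling, windows and count minimums. The fold calls were run on simulated gene counts, with known changes larger than 2-fold in genes well above the count minimum. Recovery of 2-fold changes near the minimum, and of peaks, was not simulated. Analyses used Python 3.11.15 with numpy 2.4.6, scipy 1.17.1, pandas 2.3.3, pysam 0.24.0 and matplotlib 3.10.9.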

Additional observations from a re-analysis of the deposited data

Results flagged for a closer look

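Barcodes with under 200 genes entered no comparison of the report, and those among them that met the rule of at least 5 late granule UMIs carried a signal in ATAC. In library 1, 21 such barcodes held 649 ATAC CPM (counts scaled to a total of 1000000) at the 6 loci (479 to 859), against 188 in 1883 barcodes with as few genes and under 5 such UMIs. In library 2, 143 such barcodes held 803 (725 to 887) against 217 in 1604 barcodes. These values lay near or above the 807 and 588 of the kept late granule nuclei. Why these barcodes held few genes was not tested.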

How the results depend on the processing

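No paired analysis was possible because no test was run and barcode endings carry no replicate number. Values are given as library 1 and library 2.

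With a threshold of 3 summed UMIs the share of late granule nuclei was 3.44% and 6.70%, higher and lower genes numbered 88 and 196, higher and lower peaks 1744 and 6598, and the C/EBP share was 25.1%. Summed ratios were then 0.852 and 1.14 for primary granule, 0.602 and 0.771 for S phase and 18 and 7.80 for other late granule genes, and locus ATAC was 3.44 and 2.04. With a threshold of 10 the share was 2.22% and 3.27%, primary granule genes stood at 0.667 and 0.755, late granule genes at 13.5 and locus ATAC at 3.04 in library 2. With S100a8 and S100a9 left out of the rule the share was 2.24% and 2.73%, primary granule genes stood at 0.630 and 0.724, G2/M genes at 0.937 and 1.04, S phase genes at 0.783 and locus ATAC at 3.04 in library 2.

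A minimum of 500 genes left 25 and 39 late granule nuclei (0.600% and 1.96%), 28 higher and 233 lower genes, and 671 higher and 3648 lower peaks. Primary granule genes then stood at 0.929 and 1.27, S phase at 0.689 and 0.933, G2/M at 0.868 in library 2, late granule genes at 14.2 and 8.52 and locus ATAC at 2.90 and 1.80. Thinning to 1000 UMIs gave shares of 1.40% and 3.11%, 60 higher genes, primary granule genes at 0.622 and 0.874, S phase at 0.603 in library 2, late granule genes at 21.9 and 13.7, and G2/M in library 1 turned to 1.06. Without the 5% of nuclei deepest in UMIs or ATAC, S phase stood at 0.630, late granule genes at 13.4 and locus ATAC at 2.98 in library 2.

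Leaving the ribosomal locus out gave 557 lower genes, primary granule genes at 0.929 and 1.16, S phase at 0.564 and 0.831, late granule genes at 29.3 and 14.5, and G2/M at 1.05, a turn in direction, and 1.10. Scaling to the median gene, chosen after seeing the data, gave 341 higher and 285 lower genes, S phase at 0.730 and 0.986, interferon genes at 1.88 and 1.75, and late granule genes at 37.9 and 17.2. It turned the sum of the primary granule list in library 1 to 1.20 (1.38 in library 2) and G2/M to 1.36 (1.30 in library 2). S phase genes stayed below 1 and late granule genes and locus ATAC above 1 in every alternative run. The primary granule sum in library 1 turned above 1 only when scaled to the median gene. In library 2 it was 1.001 (0.954 to 1.05) in the main run and stayed above 1 with either scaling. There it fell below 1 with the higher threshold, with S100a8 and S100a9 left out of the rule, and with thinning. The G2/M sums rose above 1 with either scaling in both libraries. They also did so with thinning in library 1 and with the changed rule in library 2.

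Count minimums of 500 UMIs and 1000 ATAC counts left 12 higher and 222 lower genes and 541 higher and 2857 lower peaks, and minimums of 20 and 50 gave 313, 1955, 5720 and 44240. The C/EBP share was 12.5% in windows of 100 bp and 33.9% in windows of 400 bp. Locus ATAC was 13.1 and 6.08 over promoter peaks and 2.20 and 1.73 over 50 kb each side. The rest of the values, 61, moved by less than their counting interval or, for counts, by less than 1.5 times.

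The limits are those of 1 library per value with 163 and 322 nuclei. A gene or peak at 0 in them is bounded only at 18.7 and 7.68 CPM of RNA or 3.40 and 1.74 ATAC CPM. Doublets and free RNA were not modelled.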

Other observations

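Genes with several nearby higher peaks but little RNA in the late granule nuclei were listed beside Alox5, chosen after their values were seen, so their counts are a description. Of the 11 counted peaks nearest to Numb, which encodes an endocytic adaptor that opposes Notch, 7 were at least 2-fold higher in both libraries, with RNA ratios of 2.38 and 1.97 on 16 and 17 UMIs. Of the 7 nearest to Ctsd, the lysosomal protease cathepsin D, 5 were higher, with RNA ratios of 1.59 and 1.36 on 11 and 22 UMIs. At Cxcr4, the receptor that holds neutrophils in the marrow, 8 of 43 nearest peaks were higher, and over all counted peaks the share was 3.43%, while its RNA stood at 0.839 (0.271 to 1.98) and 0.778 (0.422 to 1.32).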
